A study of Arabidopsis thaliana with 27 samples.

Results

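The SMALL AUXIN UP-RNA (SAUR) genes of Arabidopsis thaliana were followed through 27 seedling libraries, 3 for each of 9 groups. Members were the genes whose name or description in the deposited expression table contains SAUR. That rule found 79 genes of 33039, of which 66 had at least 1 TPM (transcripts scaled for gene length and library total) in 3 or more libraries and are described here. 13 fell below that level, among them SAUR39 and SAUR44, which were listed at 0 in all 27 libraries. Just outside the rule stood SAUR17, with 2 libraries at 1 TPM or more and a highest value of 1.19 TPM. Just inside it stood SAUR75, with 3 such libraries and the same highest value, 1.19 TPM. 7 of the 66 members had fewer than 3 WT libraries at 1 TPM, so they passed only with libraries of the lines, and the counts below do not stand for the whole family.

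The seedlings carried 1 of 3 genotypes, all labelled as Columbia material. The ELF3S364P line (called S364P here, ELF3-16 in the protocol) carries a change of the serine named in its label in ELF3, a clock protein of the evening complex that restrains growth genes at night and loses this action in warmth. The ELF3 T-insert line (called the insertion line here, ELF3-101 in the protocol) carries a T-DNA insertion in the same gene. Wild type (WT) was the control. Each genotype was sampled at 16, 22 and 29 °C, and the protocol pairs those temperatures with sampling 8, 16 and 24 h after dawn (zeitgeber time), so a temperature step and a change in sampling time cannot be told apart. Nothing in the labels says that the 3 replicates were separate cultures, so the p-values measure the spread between these samples. ELF3 itself averaged 30.7 ± 1.60, 32.3 ± 1.60 and 27.1 ± 1.97 TPM at 16 °C in S364P, insertion and WT seedlings (SD, n = 3 each). At 29 °C the same means were 69.8 ± 2.23, 39.7 ± 1.98 and 40.3 ± 1.38 TPM. A total over the gene shows neither the insertion nor the serine change, so it does not check the labels.

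SAUR proteins are small and are encoded by short, mostly intronless genes, many of which are switched on within minutes of auxin treatment. Members of the SAUR19 group bind and inhibit type 2C protein phosphatases of clade D, which keeps plasma membrane proton pumps phosphorylated and active, acidifies the cell wall and lets cells expand. In warm seedlings the transcription factor PIF4, which ELF3 represses, raises auxin synthesis and growth genes in the hypocotyl. Other members have been tied to cotyledon opening in light, to ethylene signalling or to leaf senescence. Coding sequences of the SAUR-domain genes ran from 261 to 573 bases with a median of 363, and 75 of these 78 genes had 1 coding exon.

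Across all libraries 23430 to 23854 genes had a value above 0, and Pearson's r between replicates over all genes lay between 0.973 and 0.987 for the 27 replicate pairs. The table holds TPM without read counts, so the depth is unknown and no counting interval can be given. Differences were computed as log2(TPM + 1), which understates the change of genes near or below 1 TPM, and were tested with limma over all 21396 genes at the same expression level. A member is called higher or lower where the Benjamini-Hochberg adjusted p is below 0.05. Whole seedlings were sequenced, and in bulk RNA fewer cells of a type and less RNA per cell cannot be told apart. Both lines were set against the same WT libraries, so their comparisons with WT are not independent.

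Most SAUR members differed from WT in both lines at 22 °C, and the insertion line already differed at 16 °C, where the S364P line barely did. At 16 °C the S364P line had 3 of 66 members called higher and none lower, against 1.45% of all genes called, 0.710% higher and 0.738% lower. 9 members had an unadjusted p below 0.05 in that comparison. At 22 °C it had 39 called, 29 higher and 10 lower, against 37.1% of all genes. The members' share of higher calls, 43.9%, stood above the 17.3% of all genes, and their share of lower calls, 15.2%, stood near the 19.9% of all genes. At 29 °C 29 members were called in S364P seedlings, 20 higher and 9 lower, against 38.3% of all genes. There the shares of 30.3% higher and 13.6% lower were close to the 24.5% and 13.7% of all genes.

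In the insertion line 33 members were called at 16 °C, 28 higher and 5 lower, against 26.2% of all genes. The 42.4% called higher compares with 15.5% of all genes, and the 7.58% called lower with 10.7%. At 22 °C 39 were called, 30 higher and 9 lower, against 42.9% of all genes, with 45.5% of members and 24.6% of all genes higher and 13.6% and 18.4% lower. At 29 °C 29 were called, 19 higher and 10 lower, against 38.3% of all genes, with 28.8% of members and 24.8% of all genes higher and 15.2% and 13.5% lower. The median difference over the 66 members was 0.05, 0.24 and 0.05 in S364P seedlings at 16, 22 and 29 °C, beside medians of -0.01, -0.03 and 0.07 over all genes. In the insertion line the medians were 0.25, 0.29 and 0.07, beside 0.03, 0.02 and 0.09 over all genes.

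**Figure D1:**
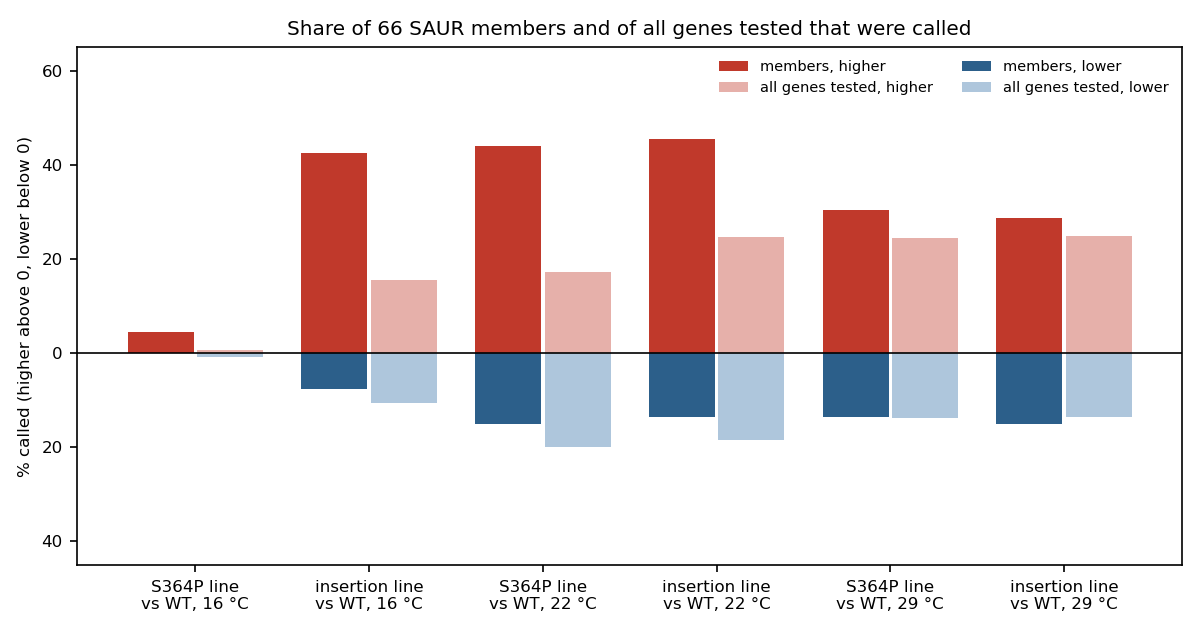
Percentage of the 66 SAUR members and of all 21396 tested genes called higher or lower in each line against WT at 16, 22 and 29 °C (limma, adjusted p below 0.05). The share of members called higher was 43.9% in S364P at 22 °C, where 17.3% of all genes were called higher, and 42.4% in the insertion line at 16 °C, where 15.5% of all genes were.

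Counted over the 6 comparisons of a line with WT, 37 members were called higher at least once and never lower, 15 were called lower at least once and never higher, and 3 (SAUR64, SAUR68 and SAUR3) changed direction between comparisons. 11 members were called in none of them. No such count over all genes is given here. In the single comparisons between 310 and 9187 of the 21396 genes were called, so the counts of this paragraph are not read as a trait of the SAUR family. Members called higher in 5 or more comparisons numbered 11, namely SAUR19 to SAUR25, SAUR1, SAUR9, SAUR10 and AT1G29490, a SAUR-domain gene for which the annotation lists SAUR68 as a synonym. Members called lower in 4 or more numbered 4, namely SAUR14, SAUR6, SAUR78 and SAUR31. AT5G01830, which the table names SAUR21, is described there as an ARM repeat protein and lacks the SAUR domain. It was called in none of the 6, and the name SAUR21 is used below for AT5G18030, as in the RefSeq synonyms.

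**Figure D2:**
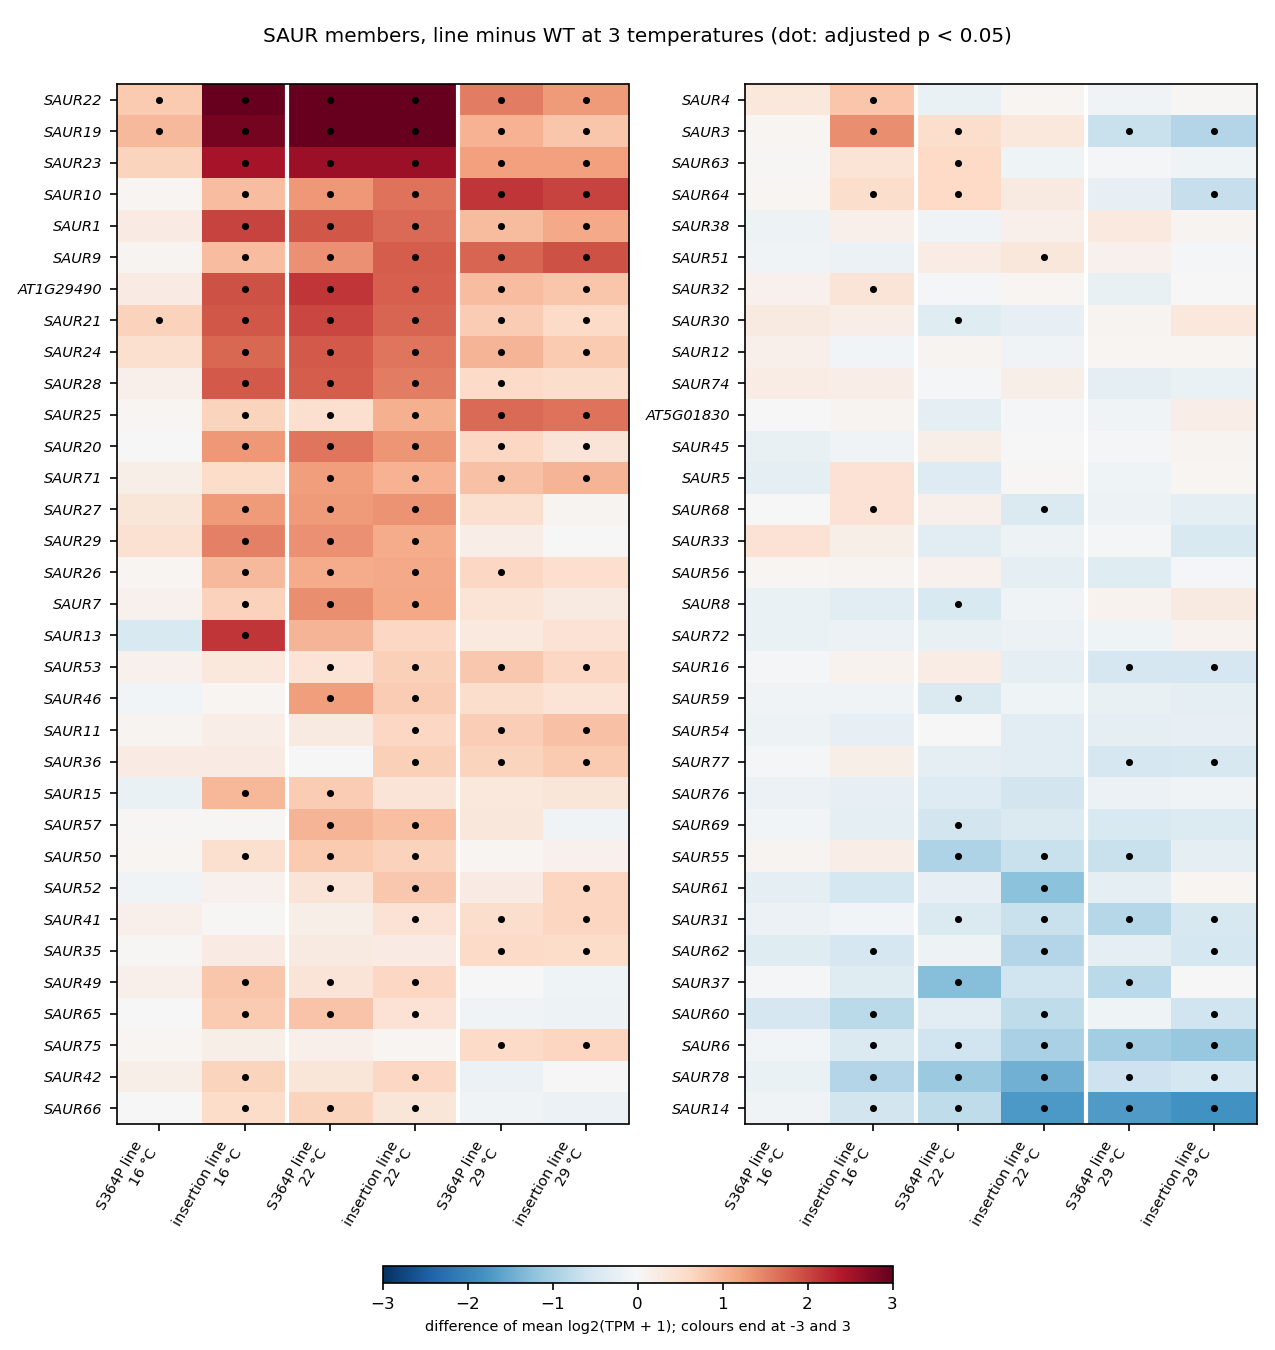
Log2 difference in TPM + 1 from WT for each of the 66 members (down the page) in the S364P and insertion lines at 16, 22 and 29 °C (across), with a dot where limma's adjusted p was below 0.05 and colours that end at -3 and 3. The SAUR19 to SAUR24 group reaches 3.67 in S364P and 3.71 in the insertion line at 22 °C, while SAUR14 reaches -1.69 in S364P and -1.81 in the insertion line at 29 °C.

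The SAUR19 to SAUR24 group, whose products promote hypocotyl cell expansion, moved most. At 22 °C all 6 genes were higher in both lines, with a median difference of 2.28 in S364P and 2.15 in the insertion line. Summed over the 6 genes, the S364P libraries held 130 to 150 TPM and the insertion libraries 105 to 145 TPM at 22 °C, against 20.1 to 27.4 TPM in WT. At 16 °C the sums were 17.0 to 19.1 TPM in S364P, 55.7 to 74.8 TPM in the insertion line and 10.6 to 12.3 TPM in WT. At 29 °C they were 170 to 193 TPM in S364P, 141 to 210 TPM in the insertion line and 79.5 to 104 TPM in WT. Neither line overlapped WT at any temperature, and the insertion line at 16 °C already stood above WT at 22 °C.

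SAUR22, which encodes one of these expansion factors, had 25.3, 23.5 and 26.5 TPM in the 3 S364P libraries at 22 °C, 27.7, 20.3 and 30.5 TPM in the insertion libraries, and 0.88, 0.92 and 1.37 TPM in the WT libraries. Every library of both lines was above every WT library. The differences were 3.67 ± 0.16 (SE) in S364P and 3.71 ± 0.16 in the insertion line, with limma's adjusted p = 1.33e-13 and 4.37e-14. At 16 °C SAUR22 stood at 1.03, 1.15 and 0.80 TPM in S364P, 10.2, 11.8 and 8.99 TPM in the insertion line and 0, 0.18 and 0.31 TPM in WT. The groups did not overlap here either, but the S364P values lay close to WT and far below the insertion line. At 29 °C SAUR22 reached 40.2, 44.5 and 42.7 TPM in S364P, 34.0, 47.0 and 27.5 TPM in the insertion line and 12.8, 13.1 and 16.1 TPM in WT, so WT now expressed it strongly and the differences were smaller, 1.54 ± 0.16 in S364P and 1.28 ± 0.16 in the insertion line.

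SAUR19, for which overexpression is known to enlarge hypocotyl cells, had 27.3, 20.7 and 19.5 TPM in S364P at 22 °C, 25.6, 16.8 and 26.4 TPM in the insertion line, and 0.80, 1.91 and 1.97 TPM in WT. Both lines were again clear of WT, and the differences of 3.22 ± 0.23 in S364P and 3.23 ± 0.23 in the insertion line carried adjusted p = 4.58e-10 and 1.76e-10 (limma). At 16 °C the libraries held 1.45, 1.66 and 0.88 TPM in S364P, 8.09, 9.15 and 5.93 TPM in the insertion line, and 0.30, 0.12 and 0.13 TPM in WT. At 29 °C they held 23.96, 30.7 and 31.9 TPM in S364P, 20.6, 32.7 and 21.8 TPM in the insertion line, and 11.02, 11.7 and 18.5 TPM in WT.

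The other genes of the group followed the same order with smaller differences. SAUR23 had 25.2, 18.1 and 26.7 TPM in S364P at 22 °C, 23.2, 20.9 and 25.1 TPM in the insertion line and 2.61, 3.07 and 3.6 TPM in WT, a difference of 2.56 ± 0.18 in each line. SAUR21 had 23.1, 20.2 and 23.2 TPM in S364P, 20.04, 16.6 and 18.7 TPM in the insertion line and 3.99, 5.05 and 5.47 TPM in WT at the same temperature. SAUR20 and SAUR24 had the highest WT levels of the group at 16 °C, 5.49 to 5.79 TPM and 2.18 to 4.25 TPM, and differed least at 22 °C, by 1.61 ± 0.14 and 1.85 ± 0.23 in S364P. All 6 genes were called higher at 29 °C in both lines. In the insertion line at 29 °C, however, leaving out its library 2, the highest of the 3 for all 6 genes, ended the calls of SAUR19 (adjusted p = 0.0535), SAUR20, SAUR21 and SAUR24, and the SAUR20 difference was then 0.22 in place of 0.38. SAUR20 was also lost without WT library 1 or 2, and SAUR20 and SAUR21 under both other scalings.

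**Figure D3:**
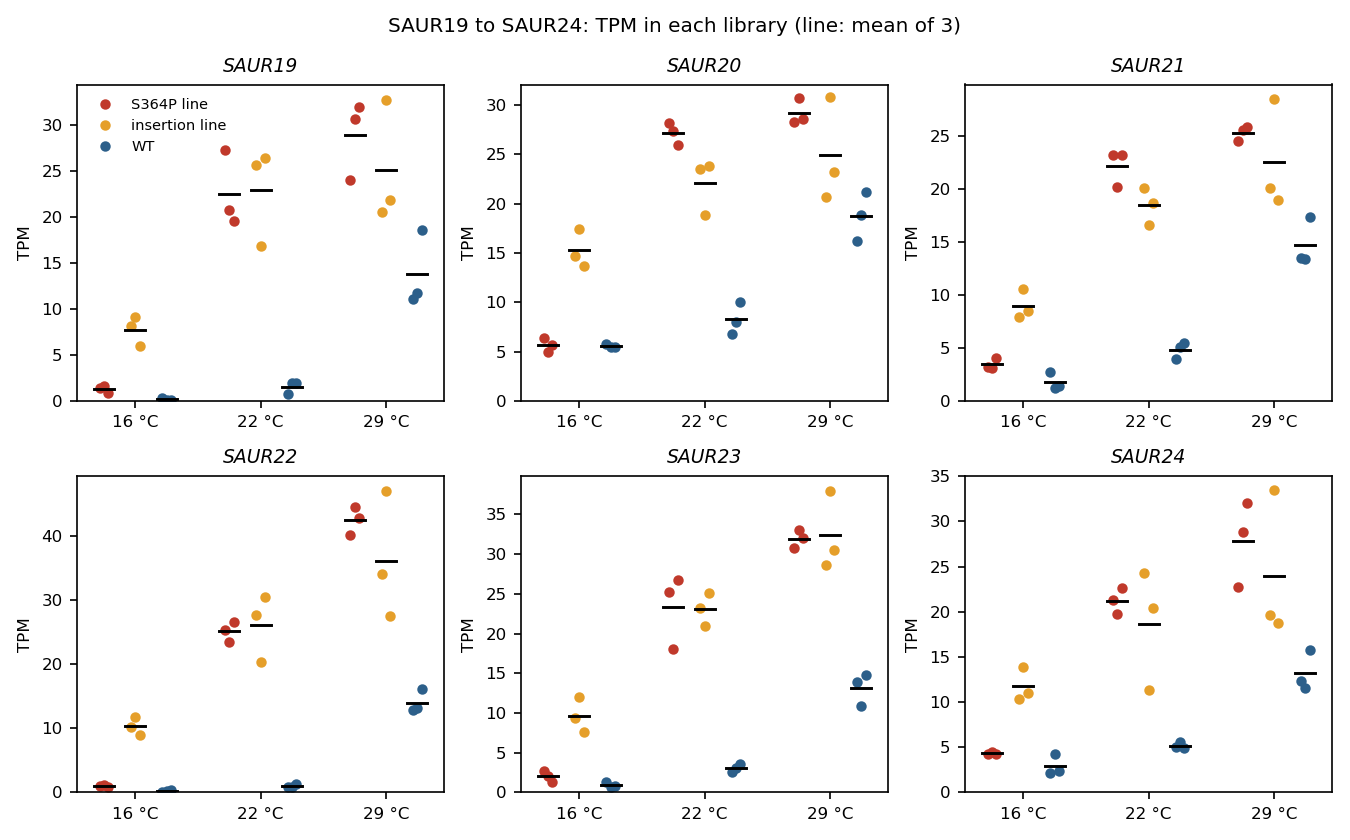
TPM of SAUR19 to SAUR24 in each of the 27 libraries (points) at 16, 22 and 29 °C, with the mean of each group, for the S364P line, the insertion line and WT. At 22 °C SAUR22 lies between 20.3 and 30.5 TPM in both lines and between 0.88 and 1.37 TPM in WT.

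The 3 members called in S364P seedlings at 16 °C all belonged to this group. SAUR19 was higher by 0.97 ± 0.23 (adjusted p = 0.0346), SAUR22 by 0.78 ± 0.16 (adjusted p = 0.0103) and SAUR21 by 0.70 ± 0.17 (adjusted p = 0.0347, limma). SAUR21 had 3.19, 3.09 and 4.09 TPM in S364P against 2.75, 1.25 and 1.4 TPM in WT, with no overlap. The count of 3 fell to 0 without S364P library 1 or without S364P library 2, and to 1 without any of the 3 WT libraries. SAUR20 showed no such difference, with 6.35, 4.96 and 5.65 TPM in S364P and 5.79, 5.50 and 5.49 TPM in WT.

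The coding sequences of these 6 genes were 88.3 to 95.9% identical over 15 pairs, and no source used here says how the authors assigned reads shared by such copies. The split of TPM between them is therefore uncertain. The same holds for SAUR68 with SAUR63 (91.8% identical) and for SAUR75 with SAUR62 (97.7%).

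Stretches of 250 bases before the annotated start of transcription were read from RefSeq's TAIR10.1 assembly, 5′ to 3′ on the gene's strand, to show what lies before members that moved together. Searched on both strands were CATGTG, a variant E-box that PIF proteins are known to bind, CACGTG, the G-box, TGTCTC and TGTCGG, both auxin response elements, and AAATATCT, the core of the evening element. Capitals mark CATGTG or TGTCTC, or their reverse complements CACATG and GAGACA. The first 3 sequences come from the SAUR19 to SAUR24 group, SAUR9 was also higher in both lines, and SAUR14 was lower in both. Positions are chr5:5975088-5975337 (minus strand) for SAUR22, chr5:5968102-5968351 (plus) for SAUR21, chr5:5966786-5967035 (minus) for SAUR20, chr4:17089684-17089933 (plus) for SAUR9 and chr4:18125560-18125809 (minus) for SAUR14.
SAUR22: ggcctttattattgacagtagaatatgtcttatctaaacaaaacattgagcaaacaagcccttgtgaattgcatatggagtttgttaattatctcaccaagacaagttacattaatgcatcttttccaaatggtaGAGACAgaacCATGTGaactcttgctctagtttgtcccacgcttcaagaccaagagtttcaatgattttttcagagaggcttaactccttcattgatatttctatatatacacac
SAUR21: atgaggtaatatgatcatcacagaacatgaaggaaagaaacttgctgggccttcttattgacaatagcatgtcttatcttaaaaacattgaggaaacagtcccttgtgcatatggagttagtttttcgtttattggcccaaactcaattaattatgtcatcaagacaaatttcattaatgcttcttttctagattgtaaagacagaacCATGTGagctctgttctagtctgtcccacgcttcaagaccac
SAUR20: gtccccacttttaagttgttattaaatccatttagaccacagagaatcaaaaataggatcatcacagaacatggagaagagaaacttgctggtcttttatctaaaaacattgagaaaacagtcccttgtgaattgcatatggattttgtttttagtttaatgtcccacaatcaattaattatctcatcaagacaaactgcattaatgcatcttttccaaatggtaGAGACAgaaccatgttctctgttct
SAUR9: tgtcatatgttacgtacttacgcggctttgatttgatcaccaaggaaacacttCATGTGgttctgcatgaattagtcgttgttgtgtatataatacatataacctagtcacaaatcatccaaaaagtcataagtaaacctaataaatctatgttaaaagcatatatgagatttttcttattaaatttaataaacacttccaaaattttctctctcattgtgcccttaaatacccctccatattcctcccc
SAUR14: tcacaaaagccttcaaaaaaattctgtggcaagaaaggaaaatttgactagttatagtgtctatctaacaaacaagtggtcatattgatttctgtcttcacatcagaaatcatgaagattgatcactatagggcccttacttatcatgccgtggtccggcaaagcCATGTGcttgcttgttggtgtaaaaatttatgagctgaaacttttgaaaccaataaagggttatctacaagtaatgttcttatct

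CATGTG lay 105 bases before the start of SAUR22, 42 before SAUR21, 197 before SAUR9 and 85 before SAUR14. The SAUR22 window also held TGTCTC at 115 bases, and the SAUR20 window held that motif alone, at 25 bases. The windows of SAUR23 and SAUR24 held none of the 5 motifs. CATGTG was found in 30 of the 65 expressed SAUR-domain members (46.2%), against 11.1% of the windows of 27443 protein-coding genes. It was present in 21 of the 37 members called only higher (56.8%) and in 5 of the 15 called only lower (33.3%), so members of both directions held it. CACGTG was found in 1 of the 65 (1.5%, against 6.5% of all windows), TGTCTC in 7 (10.8%, against 10.9%), TGTCGG in 2 (3.1%, against 4.2%) and AAATATCT in 3 (4.6%, against 4.8%). Tandem copies share sequence, so the windows are not independent, and a match is a run of letters and no evidence of binding.

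SAUR25 to SAUR29, the group nearest to the SAUR19 group by number, moved the same way. All 5 were higher in S364P at 22 °C (median difference 1.28), and all 5 in the insertion line at both 16 °C (1.28) and 22 °C (1.14), while none was called in S364P at 16 °C. With the replicate number as a block, SAUR25 in the insertion line at 16 °C was not called (adjusted p = 0.0873, limma). The SAUR25 call in S364P at 22 °C was lost with a pseudocount of 5 and without S364P library 2 (adjusted p up to 0.092, limma). SAUR28 had 9.51, 7.49 and 10.7 TPM in S364P at 22 °C, 7.89, 5.29 and 9.40 TPM in the insertion line and 2.62, 1.75 and 1.42 TPM in WT. Neither line overlapped WT, and the differences were 1.81 ± 0.21 in S364P and 1.53 ± 0.21 in the insertion line. At 29 °C 3 of the 5 were called in S364P and 1 in the insertion line. The call of SAUR28 in S364P at 29 °C (0.58 ± 0.21, adjusted p = 0.0358, limma) was lost without S364P library 3 and without WT library 1 or 2.

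SAUR25 was near 0 in WT and highest at 29 °C in both lines. It was listed at 0 in all WT libraries at 16 and 22 °C and at 0.43, 0.29 and 0 TPM in WT at 29 °C. In S364P it stood at 0.29, 0.52 and 0.36 TPM at 22 °C and at 2.98, 2.62 and 3.4 TPM at 29 °C. In the insertion line it stood at 0.86, 1.05 and 1.38 TPM at 22 °C and at 2.11, 3.21 and 3.21 TPM at 29 °C. Every line library at 22 and 29 °C was thus above every WT library of its temperature, and the differences at 29 °C were 1.70 ± 0.14 in S364P and 1.63 ± 0.14 in the insertion line (adjusted p = 2.80e-09 and 4.84e-09, limma). SAUR25 had no WT library at 1 TPM and passed that level only through the lines.

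SAUR10 and SAUR9 had the largest positive differences at 29 °C. SAUR10, a gene linked to cell elongation in stems, had 11.1, 8.40 and 8.26 TPM in S364P at 29 °C, 9.14, 8.97 and 7.25 TPM in the insertion line and 1.68, 1.21 and 1.06 TPM in WT. WT thus stayed below 2 TPM at the temperature at which its SAUR19 group was highest. The differences were 2.14 ± 0.18 in S364P and 2.03 ± 0.18 in the insertion line (adjusted p = 3.02e-09 and 6.37e-09, limma). SAUR9, whose product inhibits clade D phosphatases, had 14.2, 11.2 and 10.0 TPM in S364P at 29 °C, 13.7, 14.4 and 11.9 TPM in the insertion line and 2.61, 2.19 and 3.71 TPM in WT, with differences of 1.74 ± 0.18 and 1.92 ± 0.18. At 16 °C both genes were called in the insertion line alone, each by 0.92 ± 0.18. With the replicate number as a block, SAUR9 at 16 °C had adjusted p = 0.0590.

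SAUR1, AT1G29490 and SAUR13 were also among the 12 members with the largest differences. SAUR1 had 26.2, 23.9 and 26.0 TPM in S364P at 22 °C, 24.4, 17.5 and 27.7 TPM in the insertion line and 6.93, 6.59 and 5.45 TPM in WT, with differences of 1.85 ± 0.16 and 1.71 ± 0.16. AT1G29490 had 8.06, 3.22 and 5.26 TPM in S364P, 4.23, 3.32 and 3.98 TPM in the insertion line and 0.62, 0.29 and 0.32 TPM in WT at the same temperature, with differences of 2.15 ± 0.24 and 1.78 ± 0.24. Neither gene overlapped WT in either line. SAUR13 had 13.2, 12.6 and 14.2 TPM in the insertion line at 16 °C against 1.92, 2.68 and 2.17 TPM in WT, a difference of 2.14 ± 0.44. In S364P at 16 °C it had 2.54 and 2.80 TPM and was listed at 0 in library 3, and at 22 and 29 °C no difference from WT was called in either line. SAUR13 overlaps the protein-coding gene AT4G38820 on the opposite strand over 433 bases. That gene stood at 2.64 to 6.0 TPM in S364P, 4.2 to 9.38 TPM in the insertion line and 0 to 0.31 TPM in WT at 16 °C, and with the strandedness unstated in the labels and headers, reads of the 2 genes cannot be told apart.

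SAUR61 to SAUR68, a cluster on chromosome 1 whose members promote hypocotyl and stamen filament elongation, split by line at 16 and 22 °C. At 29 °C none of the 8 was called between the lines. In S364P none was called at 16 °C, 5 of the 8 were higher and none lower at 22 °C, and 1 was higher and none lower at 29 °C. In the insertion line 5 rose and 1 fell at 16 °C. At 22 °C 3 rose and 3 fell, and at 29 °C 1 rose and 2 fell. Of all 21396 genes, 310, 7948 and 8187 were called in S364P at 16, 22 and 29 °C, 49%, 46.5% and 64.2% of them higher. For the insertion line these numbers were 5601, 9187 and 8189, with 59.2%, 57.2% and 64.7% higher. SAUR63 had 35.8, 28.3 and 28.8 TPM in S364P at 22 °C, 16.7, 14.7 and 23.98 TPM in the insertion line and 20.7, 21.4 and 18.0 TPM in WT. S364P alone was clear of WT, by 0.60 ± 0.16. SAUR61 had 3.64, 4.24 and 3.84 TPM in S364P, 1.30, 1.11 and 2.13 TPM in the insertion line and 4.66, 4.65 and 5.02 TPM in WT, and its difference of -1.22 ± 0.25 in the insertion line was called while the -0.24 of S364P was not (adjusted p = 0.492, limma). SAUR62 followed SAUR61, with 24.4, 20.4 and 24 TPM in S364P, 12.9, 11.7 and 15.9 TPM in the insertion line and 23.0, 26.8 and 26.5 TPM in WT at 22 °C. SAUR61 and SAUR63 each overlap another gene on the opposite strand, over 342 and 602 bases.

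Of the 5 most abundant members 4 were called lower at least once and never higher, the exception being SAUR50, which was called only higher. No such count over all genes is given, so this is not read as a trait of abundant members. SAUR6 had the highest mean over the 27 libraries, 89.4 TPM, followed by SAUR78 (62.7 TPM), SAUR50 (54.7 TPM), SAUR14 (52.5 TPM) and SAUR16 (39.0 TPM). SAUR14, one of the light-induced SAURs of the cotyledon, had 19.2, 20.3 and 22.9 TPM in S364P at 29 °C, 22.4, 17.7 and 17.4 TPM in the insertion line and 68.3, 68.6 and 70.4 TPM in WT. Every line library held less than any WT library, and the differences were -1.69 ± 0.10 in S364P and -1.81 ± 0.10 in the insertion line (adjusted p = 1.85e-11 and 5.82e-12, limma). At 22 °C SAUR14 had 52.6, 58.8 and 52.8 TPM in S364P, 26.8, 29.2 and 26.6 TPM in the insertion line and 83.1, 99.4 and 96.8 TPM in WT, 3 levels with no overlap. At 16 °C it was called lower in the insertion line (-0.56 ± 0.10) and not in S364P (-0.12, adjusted p = 0.907).

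SAUR6 had 91.9, 96.2 and 88.0 TPM in S364P at 22 °C, 73.4, 66.5 and 70.9 TPM in the insertion line and 142, 137 and 137 TPM in WT. At 29 °C it had 67.7, 75.8 and 62.1 TPM in S364P, 70.1, 58.6 and 61.4 TPM in the insertion line and 135, 145 and 144 TPM in WT. The lines were below WT without overlap at both temperatures, S364P by -0.59 ± 0.073 at 22 °C and -1.04 ± 0.073 at 29 °C, and the insertion line by -0.97 ± 0.073 and -1.15 ± 0.073. SAUR6 overlaps its neighbour SAUR7 over 176 bases on the same strand, and SAUR7 was called higher in both lines at 22 °C, by 1.39 and 1.17.

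SAUR78, whose product is reported to bind ethylene receptors, had 47.4, 47.0 and 49.2 TPM in S364P at 22 °C, 35.5, 39.9 and 38.2 TPM in the insertion line and 101, 103 and 107 TPM in WT. The lines were lower by -1.10 ± 0.081 and -1.43 ± 0.081 (adjusted p = 6.94e-10 and 3.66e-12, limma). At 16 °C it had 33.6, 34.6 and 38.7 TPM in the insertion line and 69.4, 64.7 and 66.2 TPM in WT, while S364P stood at 56.1, 60.4 and 58.7 TPM and was not called (adjusted p = 0.451). Of the 3 ethylene-linked members, SAUR76 was called in none of the 6 comparisons and SAUR77 was called lower in both lines at 29 °C alone.

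SAUR31 was lower in 4 comparisons. It had 11.1, 11.7 and 10.2 TPM in S364P at 29 °C, 14.8, 15.7 and 13.5 TPM in the insertion line and 23.3, 20.9 and 18.5 TPM in WT, and differed by -0.86 ± 0.14 and -0.48 ± 0.14. Its call in S364P at 22 °C (-0.43 ± 0.14, adjusted p = 0.0179, limma) was lost without S364P library 1 or 2 or WT library 1, with adjusted p up to 0.0631. SAUR31 overlaps the protein-coding gene AT4G00883 on the opposite strand over 516 bases, and reads of these genes cannot be told apart either. SAUR37 and SAUR55 were lower in S364P at 22 °C by -1.27 ± 0.27 and -0.92 ± 0.21. SAUR37 had 2.42, 1.15 and 2.38 TPM in S364P, 2.64, 5.32 and 3.3 TPM in the insertion line and 7.13, 5.92 and 5.21 TPM in WT, and the insertion line was not called. Both genes' calls in S364P at 29 °C were lost without S364P library 2 or 3 or WT library 1.

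**Figure D4:**
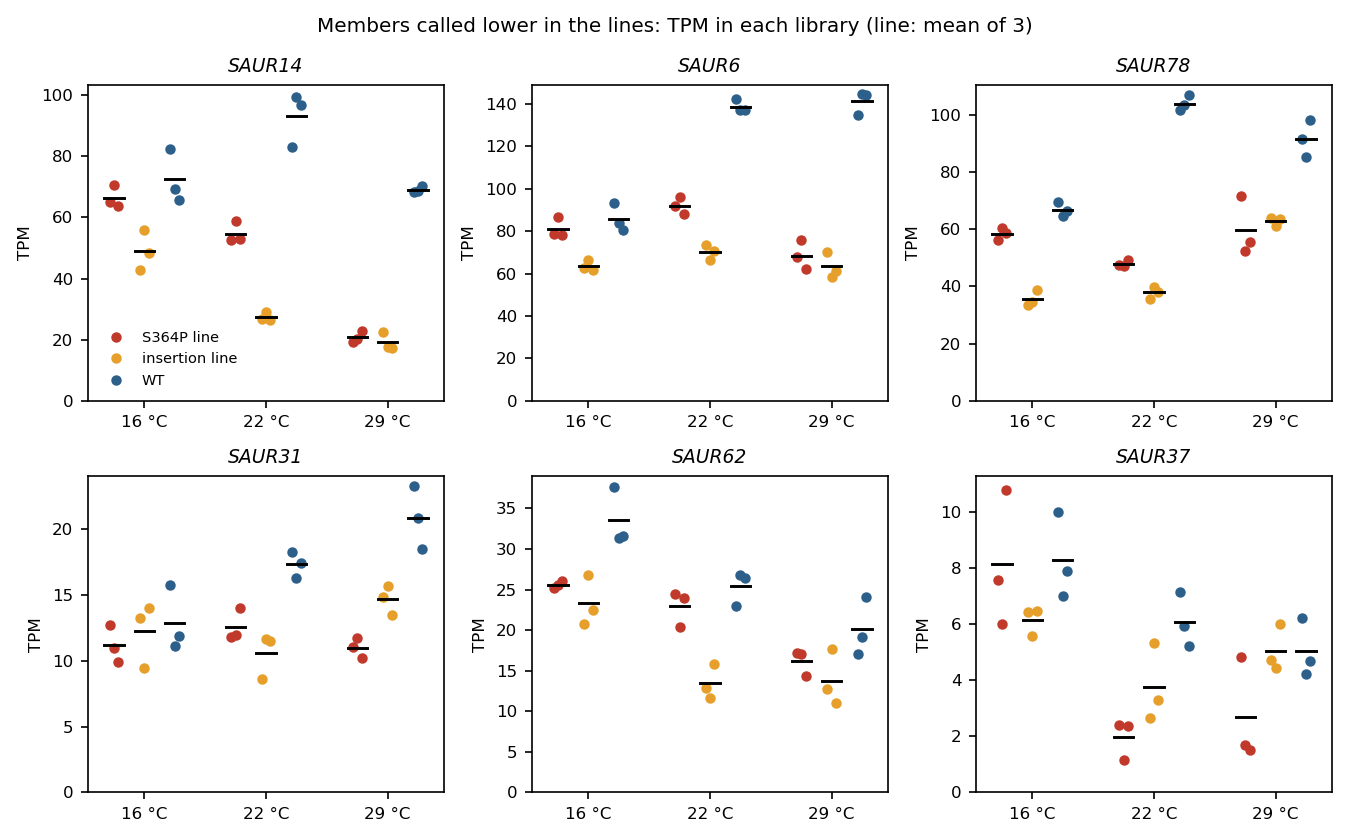
TPM of SAUR14, SAUR6, SAUR78, SAUR31, SAUR62 and SAUR37 in each of the 27 libraries (points) at 16, 22 and 29 °C, with group means, for S364P, the insertion line and WT. SAUR14 lies between 17.4 and 22.9 TPM in both lines at 29 °C and between 68.3 and 70.4 TPM in WT.

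SAUR14 and the other light-induced members did not move as a group. SAUR50 was higher at 22 °C, with 77.5, 73.7 and 73.9 TPM in S364P, 72.2, 63.2 and 77.0 TPM in the insertion line and 41.3, 45.0 and 42.9 TPM in WT, differences of 0.79 ± 0.075 and 0.70 ± 0.075. At 29 °C it was called in neither line, with 65.7, 75.5 and 67.2 TPM in S364P, 71.5, 77.3 and 70.3 TPM in the insertion line and 66.6, 65.6 and 68.1 TPM in WT. SAUR16 was lower in both lines at 29 °C by -0.50 ± 0.14. SAUR36, a promoter of leaf senescence, was higher in both lines at 29 °C, with 11.3, 13.98 and 14.02 TPM in S364P, 12.6, 14.9 and 14.6 TPM in the insertion line and 7.44, 8.09 and 7.78 TPM in WT. SAUR49, the other senescence-linked member, was called in neither line at 29 °C. SAUR41 and SAUR71, of a subfamily expressed in inner tissues, were also higher in both lines at 29 °C, SAUR41 by 0.53 ± 0.14 and 0.63 ± 0.14 and SAUR71 by 0.87 ± 0.26 and 1.02 ± 0.26. SAUR72, the remaining member of that subfamily described here, was called in neither line at 29 °C. Without S364P library 3 the SAUR71 difference in S364P was 0.58 (adjusted p = 0.0855, limma).

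Levels of organ marker genes stand beside these results. The summed TPM of 19 root markers was 74.1 to 117 in S364P, 96.4 to 129 in the insertion line and 151 to 354 in WT at 22 °C, with 6 of the 19 called lower in S364P and 3 lower and 1 higher in the insertion line. Over all genes 19.9% were lower in S364P, and 18.4% lower and 24.6% higher in the insertion line. IRT1 had the largest difference of the 19 at 22 °C, -3.37 ± 0.58 in S364P and -3.31 ± 0.58 in the insertion line. WOX5, PLT1, PLT2, SHR, LBD16 and CASP4 were among the markers called in neither line there. A sum of TPM is weighted to its most abundant genes, so these sums are not read as an amount of root RNA. At 29 °C the sums were 76.4 to 132 in S364P, 122 to 154 in the insertion line and 124 to 212 in WT. The summed TPM of 5 photosynthesis genes used as shoot markers was 13948 to 14882 in S364P, 14115 to 15537 in the insertion line and 26405 to 27712 in WT at 29 °C, with all 5 called lower in both lines, beside 13.7% and 13.5% of all genes lower in S364P and in the insertion line. No marker of either list was at 0 in all libraries of a group. S364P library 3 at 29 °C stood apart for 3 seed storage and oil body markers, with a sum of 15.98 TPM against 0.08 and 0.26 TPM in the other S364P libraries at 29 °C and at most 0.86 TPM in any library of the other groups. Without it 23 members were called in S364P against WT at 29 °C, 16 higher and 7 lower, in place of 29. The part of these markers in the SAUR results was not tested.

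In WT the SAUR19 group was higher at each warmer temperature than at the one before it. Against 16 °C, 26 members were called at 22 °C, 23 higher and 3 lower, beside 38.2% of all genes called (26.5% higher, 11.7% lower). Against 22 °C, 33 were called at 29 °C, 28 higher and 5 lower, beside 37.8% of all genes (28.8% higher, 9.05% lower). All 6 genes of the group were higher at each step, with a median difference of 0.95 for the first and 1.61 for the second. At 22 against 16 °C the largest rises among called members were those of SAUR23 (1.105 ± 0.18), SAUR21 (1.09 ± 0.17), SAUR19 (1.08 ± 0.23) and SAUR3 (0.87 ± 0.14), and the 3 falls were SAUR45 (-0.70 ± 0.19), SAUR41 (-0.56 ± 0.14) and SAUR62 (-0.39 ± 0.14). At 29 against 22 °C SAUR22 rose by 2.87 ± 0.16, SAUR19 by 2.53 ± 0.23, SAUR57 by 1.98 ± 0.18 and SAUR23 by 1.79 ± 0.18, while SAUR61 (-1.26 ± 0.25), SAUR71 (-0.81 ± 0.26), SAUR76 (-0.66 ± 0.23) and SAUR41 (-0.65 ± 0.14) fell. With median-of-ratios scaling 8034 and 7224 of the 21396 genes were called at the first and second step, 50.7% and 49.4% of them higher. The splits of the members were then 14 higher and 4 lower for the first step and 22 and 9 for the second. SAUR20 and SAUR24 were no longer called at the first. With a pseudocount of 5, SAUR19, SAUR22 and SAUR24 were not called at the first step (adjusted p = 0.120 for SAUR19 and 0.160 for SAUR22, limma). SAUR24 was also lost there without WT library 1 or 3 at 16 °C or WT library 2 at 22 °C, SAUR20 without WT library 3 at 22 °C, and SAUR62 without any 1 of 5 of the 6 libraries. At the second step SAUR71 was lost without WT library 3 at 22 °C or WT library 1 or 2 at 29 °C, and SAUR76 without WT library 2 or 3 at 22 °C or WT library 1 or 2 at 29 °C.

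In S364P 45 members were called at 22 against 16 °C, 38 higher and 7 lower, beside 55.2% of all genes (33.1% higher, 22.1% lower). At 29 against 22 °C 29 were called, with 20 higher and 9 lower, beside 53.7% of all genes (43.3% higher, 10.4% lower). In the insertion line 26 were called at the first step, 19 higher and 7 lower, beside 48.3% of all genes (31.0% higher, 17.3% lower). At its second step 25 were called, 20 higher and 5 lower, beside 47.5% of all genes (37.9% higher, 9.61% lower). The second step carried a shift of all genes, with a median of 0.22 in S364P, 0.19 in the insertion line and 0.12 in WT. Median-of-ratios scaling took that shift to near 0 and the split of the members to 13 higher and 17 lower in S364P and to 9 and 9 in the insertion line, and the first step of the insertion line became 14 and 11. Under that scaling 9017, 7766 and 10619 of the 21396 genes were called in the same order, 53.1%, 46.9% and 50.6% of them higher. Members that rose by less than the shift of all genes are therefore not distinguished from it.

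For the SAUR19 group the 16 to 22 °C step was larger in S364P than in WT. The difference between the step in S364P and the step in WT was called for 27 members, 21 positive and 6 negative, beside 14.1% of all genes (7.81% positive, 6.27% negative), with a median of 0.23 over the members and -0.02 over all genes. It was positive for all 6 genes of the SAUR19 group, the largest being SAUR22 (2.89 ± 0.23, adjusted p = 1.62e-08) and SAUR19 (2.26 ± 0.33, adjusted p = 5.83e-05, limma). The most negative of those called were SAUR37 (-1.22 ± 0.38) and SAUR55 (-1.01 ± 0.30), whose calls were lost without any 1 of several libraries, with adjusted p up to 0.103 and 0.0801. For the insertion line the same comparison called 9 members, 4 positive and 5 negative, beside 9.82% of all genes (5.47% positive, 4.35% negative), and none of the SAUR19 group. Among the called members SAUR14 was the most negative there (-1.16 ± 0.15, adjusted p = 1.92e-05), with SAUR3 next (-1.07 ± 0.21). SAUR9 and SAUR57 were the most positive of those called (0.89 ± 0.25 and 0.86 ± 0.25), and both were lost without any 1 of several libraries, among them insertion library 1 at 22 °C, without which 5 members were called, all negative. With median-of-ratios scaling the split was 2 positive and 6 negative, beside 1943 of all 21396 genes called, 52.1% of them positive.

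From 22 to 29 °C the SAUR19 group rose less on the log2 scale in both lines than in WT, which does not hold for every gene in TPM. The difference of steps was called for 23 members in S364P, 5 positive and 18 negative, beside 17.4% of all genes (10.5% positive, 6.94% negative), and for 17 in the insertion line, 3 positive and 14 negative, beside 17.8% (8.72% positive, 9.13% negative). SAUR19 stood at -2.18 ± 0.33 in S364P and -2.41 ± 0.33 in the insertion line, and SAUR22 at -2.13 ± 0.23 and -2.43 ± 0.23. 5 of the 6 genes were called negative in each line, SAUR24 being the exception. SAUR25 (1.23 ± 0.20) and SAUR10 (0.84 ± 0.25) were the most positive of the called members in S364P, and SAUR61 (1.27 ± 0.36) and SAUR78 (0.90 ± 0.12) in the insertion line. The SAUR25 call was lost with a pseudocount of 0.1 (adjusted p = 0.204, limma), and WT is near 0 for this gene. SAUR10 was no longer called under either other scaling or without any of 6 libraries, and SAUR61 was lost without insertion library 3 at 29 °C. Under median-of-ratios scaling the S364P split was 2 positive and 20 negative, beside 3479 of all 21396 genes called, 46.5% of them positive.

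**Figure D5:**
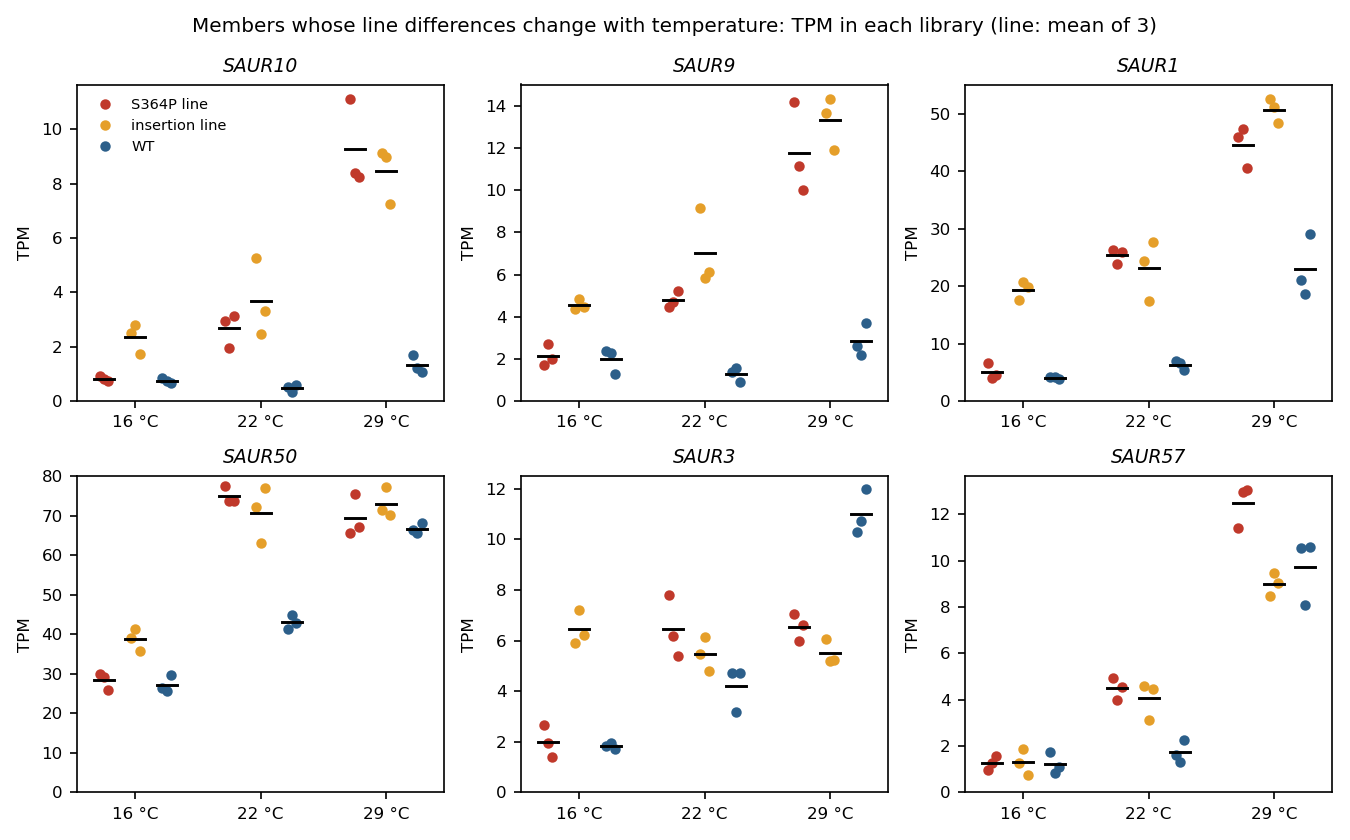
TPM of SAUR10, SAUR9, SAUR1, SAUR50, SAUR3 and SAUR57 in each of the 27 libraries (points) at 16, 22 and 29 °C, with group means, for S364P, the insertion line and WT. SAUR10 lies between 7.25 and 11.1 TPM in both lines at 29 °C and between 1.06 and 1.68 TPM in WT.

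SAUR3 crossed between temperatures. At 16 °C it had 2.67, 1.97 and 1.38 TPM in S364P, 5.92, 7.21 and 6.20 TPM in the insertion line and 1.83, 1.94 and 1.71 TPM in WT. At 29 °C it had 7.03, 6.0 and 6.62 TPM in S364P, 6.06, 5.19 and 5.22 TPM in the insertion line and 10.3, 10.7 and 11.97 TPM in WT. The insertion line was thus above WT at 16 °C by 1.39 ± 0.14 and below it at 29 °C by -0.89 ± 0.14, and S364P was above WT at 22 °C by 0.52 ± 0.14 and below it at 29 °C by -0.67 ± 0.14. Of these the S364P call at 22 °C was lost without S364P library 1 or WT library 2 (adjusted p up to 0.0685, limma). SAUR57 showed a difference at the middle temperature, with 4.95, 3.97 and 4.54 TPM in S364P, 4.59, 3.14 and 4.46 TPM in the insertion line and 1.61, 1.30 and 2.27 TPM in WT at 22 °C, and no call at 16 or 29 °C.

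Set directly against each other, S364P and the insertion line differed mainly at 16 °C. There 30 members were called, 3 higher in S364P and 27 lower, beside 19.2% of all genes. The share higher, 4.55%, compares with 7.0% of all genes, and the share lower, 40.9%, with 12.2%. SAUR13 (-2.59 ± 0.44), SAUR22 (-2.50 ± 0.16) and SAUR19 (-1.90 ± 0.23) were the lowest in S364P, and SAUR78 (0.70 ± 0.081), SAUR14 (0.44 ± 0.10) and SAUR6 (0.35 ± 0.073) were the 3 that were higher. With the replicate number as a block, which leaves out the 2 insertion libraries without a matching number, 17 were called. At 22 °C 10 were called, 8 higher in S364P and 2 lower, beside 15.6% of all genes (6.18% higher, 9.45% lower). SAUR61 (0.98 ± 0.25), SAUR14 (0.97 ± 0.10) and SAUR63 (0.73 ± 0.16) led the higher ones, and SAUR36 (-0.73 ± 0.15) and SAUR25 (-0.59 ± 0.14) were lower. SAUR63 and SAUR25 were not called when these groups were fitted alone. None of the SAUR19 group was called at 22 °C, where the differences lay between -0.04 and 0.29. At 29 °C limma called 0 of the 66, beside 1.0% of all genes (0.659% higher, 0.341% lower), with 7 at an unadjusted p below 0.05. The largest of those 7 was SAUR37 (-0.82 ± 0.27, adjusted p = 0.151), and 3 members were called when S364P library 1 at 29 °C was left out.

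Neighbouring members did not always move together. With at most 2 other genes between them, 38 members formed 11 blocks, and 35 of these were expressed. The block of SAUR20 to SAUR24 had all 5 members higher in every comparison of a line with WT but one, S364P at 16 °C, where 2 of 5 were called. In 1 block on chromosome 4 SAUR13 and SAUR15 were called higher and SAUR14 lower in the insertion line at 16 °C. SAUR14 and SAUR16 were lower in both lines at 29 °C, where neither SAUR13 nor SAUR15 was called. On chromosome 2 SAUR7 was higher and SAUR6 lower in both lines at 22 °C. In the block of SAUR1 to SAUR5, SAUR1 was higher in both lines at 29 °C and SAUR3 lower.

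Genes acting around the SAURs were counted from lists. Of the 9 tested clade D phosphatases, the targets that SAUR proteins inhibit, 5 were higher and 1 lower in S364P at 22 °C and 6 higher at 29 °C, while in the insertion line 6, 5 and 6 were higher at 16, 22 and 29 °C and none lower. PP2C.D7 averaged 7.93 ± 1.02 TPM in S364P, 9.70 ± 0.787 TPM in the insertion line and 2.98 ± 0.50 TPM in WT at 22 °C (SD, n = 3 each), differences of 1.17 ± 0.14 and 1.43 ± 0.14. PP2C.D1 averaged 95.5 ± 8.28 TPM in S364P, 87.6 ± 0.121 TPM in the insertion line and 37.5 ± 2.04 TPM in WT. None of the 9 was called in S364P at 16 °C. Of the 8 tested plasma membrane proton pumps, which act downstream of these phosphatases, none was higher in either line at 22 °C. AHA7 was lower in both lines at that temperature, by -0.72 ± 0.24 in S364P and -0.65 ± 0.24 in the insertion line. AHA2 was lower in S364P alone, by -0.52 ± 0.16. At 16 °C AHA11 was lower in the insertion line, by -0.39 ± 0.064. At 29 °C 3 pumps were higher in each line, AHA11 by 0.41 ± 0.064 in S364P and 0.52 ± 0.064 in the insertion line, beside 24.5% and 24.8% of all genes higher.

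On the auxin side, 2 of the 6 tested GH3 genes, whose enzymes conjugate auxin to amino acids, were higher and 1 lower in each line at 22 °C. GH3.5 averaged 104 ± 7.07 TPM in S364P, 103 ± 7.14 TPM in the insertion line and 32.9 ± 2.01 TPM in WT at 29 °C, differences of 1.63 ± 0.14 and 1.61 ± 0.14. Of the 6 auxin receptor genes 3 were higher in S364P and 4 in the insertion line at 22 °C, and none was lower. AFB1 was higher by 0.54 ± 0.090 in S364P and 0.61 ± 0.090 in the insertion line. Of the 5 activating auxin response factors, 1 was lower in S364P, and 1 was higher and 2 were lower in the insertion line, at the same temperature. ARF6 was higher in the insertion line at 29 °C by 0.51 ± 0.092. At 22 °C the counts of these lists stand beside 17.3% of all genes higher and 19.9% lower in S364P, and 24.6% higher and 18.4% lower in the insertion line. At 29 °C they stand beside 24.5% and 24.8% of all genes higher, and at 16 °C in the insertion line beside 15.5%.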

How the data were processed

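Messenger RNA of whole seedlings was sequenced on an Illumina platform, per the labels' protocols. The authors deposited 1 table of TPM per gene and library with annotation columns, per the file headers. No source used here names the aligner, quantifier, genome build or strandedness. The length column equalled a TAIR10.1 transcript length for 32373 of 32547 matched genes and for 77 of 79 members. Columns were joined to samples by their names. 2 insertion libraries at 16 °C carry numbers that differ between title and description and were used as replicates of their group without a number.

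Member names came from the table (16) or from RefSeq synonyms (63). Genes with at least 1 TPM in 3 libraries (21396) were tested as log2(TPM + 1) with limma 3.58.1 in R 4.3.3, 1 mean per group over all 27 libraries, 18 residual and 3.17 prior degrees of freedom, with Benjamini-Hochberg adjustment over all tested genes. Differences of temperature steps were tested as interactions. The procedure was tested on simulated data. Named members were SAUR19 to SAUR24, the 12 largest line differences, the 5 most abundant, all called in S364P at 16 °C, up to 6 called lower most often, the 3 largest each way between lines, the 4 largest each way per WT step and, by a later addition, the 2 largest each way per interaction. Other values given for single members were chosen after they were seen. Members and lists were chosen with earlier results of these data known. Upstream windows and coding sequences were read from RefSeq TAIR10.1 with Biopython 1.88. Tables used Python 3.11.15, pandas 2.3.3 and NumPy 2.4.6, and plots Matplotlib 3.10.9. Alternatives were other pseudocounts (0.1 and 5), filters, scalings, a minimum difference, the compared groups alone, a replicate block and leaving out each library.

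No pair of groups met the rule set for pairing by replicate number, so the analysis has no block. That rule cannot exclude a weaker tie between same-numbered samples. No library was left out.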

Additional observations from a re-analysis of the deposited data

Results flagged for a closer look

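The step of a line and the step of WT between 2 temperatures differed for several members, tested as the interaction in limma with adjusted p below 0.05 and given as log2 differences (line minus WT). Between 16 and 22 °C this was so for 27 members in S364P, the farthest being SAUR22 at 2.89 and SAUR19 at 2.26 on the positive side and SAUR37 at -1.22 and SAUR55 at -1.01 on the negative side. Between 22 and 29 °C it was so for 23 members in S364P, with SAUR25 at 1.23, SAUR10 at 0.84, SAUR19 at -2.18 and SAUR22 at -2.13. SAUR25 had no WT library at 1 TPM, and its difference was not called with a pseudocount of 0.1 (adjusted p = 0.204, limma). In the insertion line 9 members differed between 16 and 22 °C, with SAUR9 at 0.89, SAUR57 at 0.86, SAUR14 at -1.16 and SAUR3 at -1.07. Between 22 and 29 °C 17 members differed there, with SAUR61 at 1.27, SAUR78 at 0.90, SAUR22 at -2.43 and SAUR19 at -2.41. Both lines share the WT libraries.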

How the results depend on the processing

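No direction of a named member's call turned round under any alternative. Of 305 such calls, 291 held with a pseudocount of 0.1, 293 with 5, 293 without a filter, 290 of 290 with a filter at 5 TPM, 279 with median-of-ratios scaling, 281 with quantile normalization, 278 with the compared groups alone and 148 with a minimum log2 difference of 1. The counts of members called moved by more than 1.5 times as follows. With a minimum log2 difference of 1, S364P against WT had 0, 20 and 9 called at 16, 22 and 29 °C, the insertion line against WT 13, 20 and 9, and S364P against the insertion line 13 at 16 °C and 0 at 22 °C. Under the same minimum the first and second temperature steps had 21 and 8 in S364P, 6 and 2 in the insertion line and 3 and 14 in WT, and the differences of steps from WT had 16 and 9 in S364P and 2 and 9 in the insertion line. S364P against WT at 16 °C had 0 with a pseudocount of 5, and 1 without a filter, with median-of-ratios scaling, with quantile normalization and with the replicate block. With the compared groups alone, S364P against the insertion line at 22 °C had 6 and the first step of the insertion line 16.

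Leaving out 1 library gave 0 to 3 members for S364P against WT at 16 °C, 5 to 13 for the insertion line's first step against that of WT, and 0 to 3 for S364P against the insertion line at 29 °C. With the replicate number as a block, which leaves out the 2 insertion libraries at 16 °C without a number, 17 members were called between the lines at 16 °C, 15 in the first step of the insertion line and 3 for that step against WT, and 285 of the 305 calls held. Numbers gave no pairing by the rule used, since in 0 of 28 pairs of groups did all 3 same-numbered pairs correlate above 0.1 (r from -0.272 to 0.263). Some pairs of groups had only positive r, such as S364P and WT at 29 °C (0.197, 0.263 and 0.047), so a weaker tie is not excluded. The cause of these changes was not tested. Quantile normalization moved the split of the members in the second step to 13 higher and 19 lower in S364P, and to 2 positive and 23 negative for S364P against WT. Under it 9040 and 3742 of all 21396 genes were called in the same order, 50.1% of them higher and 41.8% positive. Without read counts, members near 1 TPM are limited by a precision that cannot be stated.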
